A study of Homo sapiens with 8 samples.

Results

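The genes described here were the kinesin genes and the centromere protein genes, taken as every gene symbol that begins with KIF and a digit or with CENP and a letter. The table held 56 of them among 24721 gene symbols, with 39 KIF genes and 17 CENP genes, and each had a single row. Kinesins are motor proteins that use ATP to walk along microtubules. Some carry vesicles, organelles and cilium components, and others build the mitotic spindle, move chromosomes and prepare the cell for cytokinesis. The CENP genes encode proteins of the centromere and kinetochore, the structure by which a chromosome is held on the spindle. CENP-A replaces the usual histone in centromeric nucleosomes, and the constitutive centromere-associated network (CCAN) binds to it through the cell cycle. The 14 mitotic kinesins include CENPE, a kinesin with a CENP name. The remaining genes fell into 26 transport and other kinesins, 13 genes of centromere chromatin and the CCAN, and 3 other CENP genes. Classes were assigned by hand, although a gene can have several roles. KIF24 was counted with the mitotic kinesins, and KIF2A and KIF2B with the transport and other kinesins. All counts by class rest on that assignment.

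The data came from human cells labelled HepG2, a hepatocellular carcinoma line, in which m6A, the methylation of adenosine in messenger RNA, was mapped by antibody precipitation of RNA fragments of about 100 nt. The 4 treatments were UV irradiation at 0.04 J/cm2, heat shock at 43 °C for 30 minutes, overnight HGF/SF (hepatocyte growth factor, or scatter factor) at 10 ng/ml and overnight IFNg (interferon gamma) at 200 ng/ml. The labels give a recovery of 4 hours after UV, in wording that could also cover heat shock. Each treatment had 1 precipitated library and 1 input library, 8 libraries in all, all from cells grown in DMEM with serum, and no untreated cells were analysed here. With 1 value for each treatment no difference has a replicate check, so no test was made and the differences compare these libraries. A bulk sample also cannot tell apart fewer dividing cells and less of an RNA in each cell.

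Expression was given as a quantile, which is printed here as a percentile from 0 (lowest) to 100 (highest) among all gene models of a treatment. It is a rank and not a concentration, and the table does not say whether it was made from input or precipitated reads or divided by transcript length. The lowest percentile in the table was 45.5 after UV, 32.7 following heat shock, 20.4 after HGF and 18.4 after IFNg, since unexpressed genes share the bottom rank. Read totals are not in the table, so the depth behind a rank is unknown. The liver label did not show in the ranks. Only 1 of 12 hepatocyte markers, TTR, reached the 60th percentile in any treatment, and ALB, the gene of serum albumin, stood at 45.5 after UV, 57.6 following heat shock, 24.9 after HGF and 22.3 after IFNg. AFP, APOA2, APOH and FGB were at the bottom rank after UV and after heat shock. Past the same mark were 1 of 6 blood cell markers, 3 of 6 fibroblast and endothelial markers and 2 of 5 neuron markers in the table, and their part in the results below was not tested.

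A percentile of 60 in at least 1 treatment was required for comparison, and 42 of the 56 genes passed it, as did 12408 of all symbols. All 17 CENP genes passed, and 25 of 39 KIF genes did. The 14 genes under it were KIF1A, KIF2B, KIF3C, KIF4B, KIF5A, KIF5C, KIF6, KIF9, KIF12, KIF17, KIF19, KIF25, KIF26B and KIF27, and none of them had an m6A peak in any treatment. KIF1A and KIF5A are motors of neuronal transport, and KIF4B is a near-identical intronless copy of KIF4A, so its rank of 57.9 after UV, 32.7 following heat shock, 44.9 after HGF and 48.8 after IFNg is uncertain. Over the 42 genes the median percentile was 81.4 after UV, 85.5 following heat shock, 81.8 after HGF and 77.5 after IFNg. Over all 12408 symbols past the filter it was 75.8, 75.9, 75.8 and 75.8 in the same order.

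The highest rank belonged to CENPF, a large protein of the outer kinetochore and nuclear matrix, at 99.3 after UV, 99.4 following heat shock, 98.2 after HGF and 95.8 after IFNg. KIF5B, the ubiquitous conventional kinesin heavy chain, followed at 98.8 after UV, 99.2 following heat shock, 97.8 after HGF and 93.9 after IFNg. Its lowest value, 93.9, still placed KIF5B near the top of the table. KIF20A, which carries the chromosomal passenger complex to the central spindle, stood at 97.6, 97.6, 95.7 and 94.9 after UV, heat shock, HGF and IFNg. KIF1C, a vesicle motor, was the only 1 of the first 5 with its higher ranks in the ligand treatments, with 93.9 and 92.5 after UV and heat shock against 97.8 and 97.8 after HGF and IFNg. KIF23, the motor of the centralspindlin complex, stood at 98.2 and 98.2 after UV and heat shock against 93.7 and 90.05 after HGF and IFNg.

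The next 5 by mean rank were KIF13A, CENPB, KIF2C, KIF22 and KIF11. KIF13A, an endosome motor, lay between 94.0 and 95.9 in the 4 treatments. CENPB, which binds a short sequence in centromeric satellite DNA, lay between 91.8 and 95.2. KIF2C, which depolymerises microtubules at kinetochores, lay between 91.9 and 93.6. These 3 genes hardly moved in rank. KIF22, a chromosome-arm motor, stood at 90.6 after UV and 82.4 after heat shock against 94.0 after HGF and 94.7 after IFNg. KIF11, the motor that pushes spindle poles apart, stood at 94.97 after UV and 95.05 after heat shock against 87.5 after HGF and 79.6 after IFNg. The ranks of the stress treatments and of the ligand treatments did not overlap for either gene, in opposite directions.

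**Figure D1:**
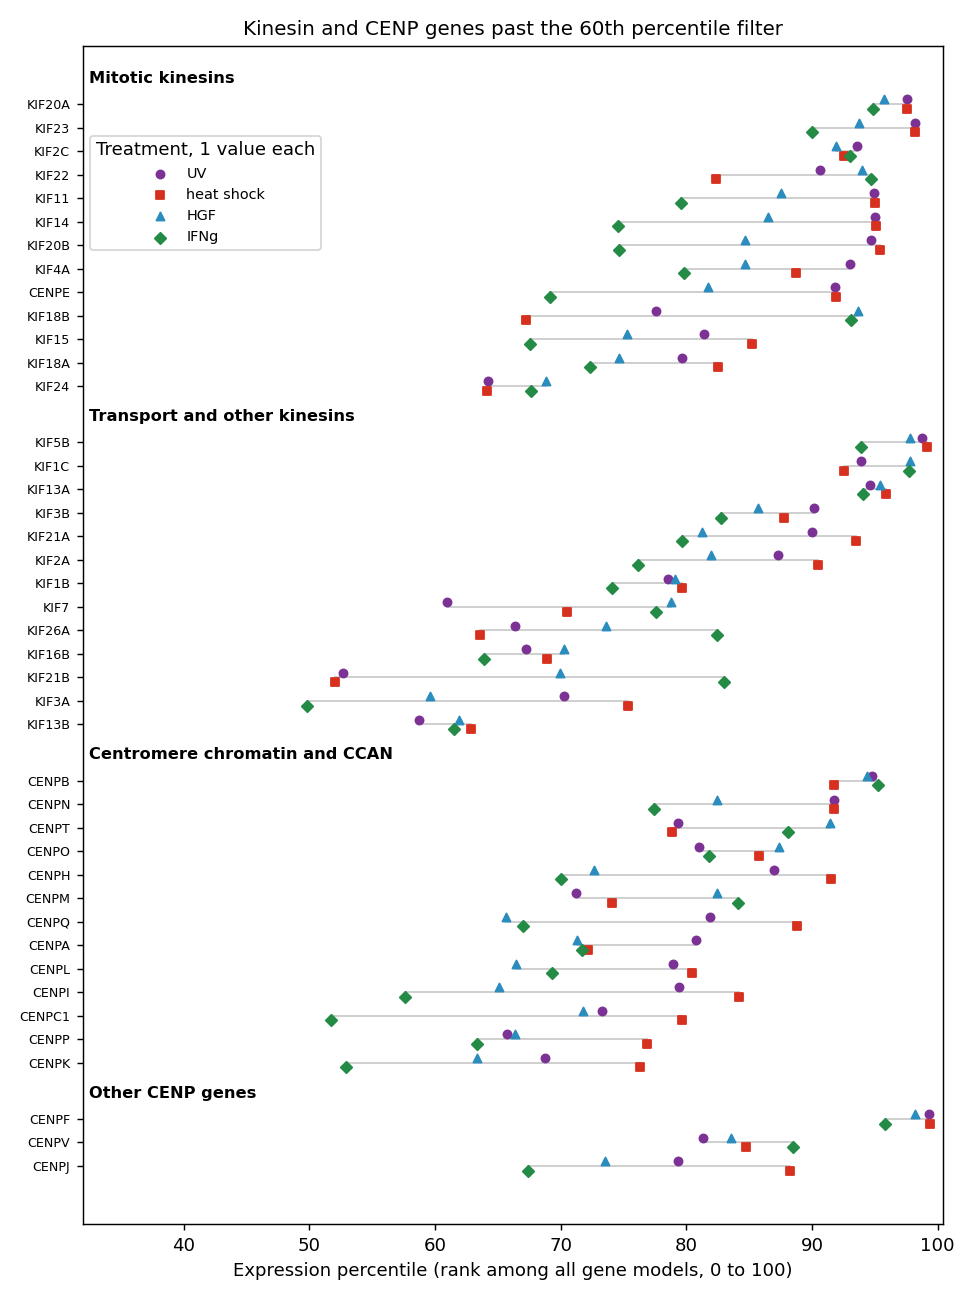
Expression percentile (horizontal axis, rank from 0 to 100) of each of the 42 kinesin and CENP genes past the 60th percentile filter, 1 point for each treatment, ordered by mean within each class. UV and HGF points of a gene share a height slightly apart from that of heat shock and IFNg. Points at the same height can overlap where values are close. For CENPE, KIF14 and KIF20B the IFNg point lies furthest left and the UV and heat shock points lie together on the right, while KIF18B and KIF21B run the other way.

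The first question was which genes ranked apart after a single treatment, its rank lying 10 or more points past that of each of the other 3. UV stood above for 0 of the 42 genes, where 1.81% of all symbols past the filter did, and below for 0, where 2.07% did. HGF likewise stood above for 0 (background 1.56%) and below for 0 (background 1.37%). Heat shock stood above for 1 gene (background 2.83%) and below for 1 (background 3.97%). IFNg stood above for 1 gene (background 3.34%) and below for 5, or 11.9% of the 42 (background 3.01%). IFNg was the treatment with the most genes called. After correction for GC content, described further on, its count below was 1. The 5 genes were CENPC1, CENPE, CENPK, KIF14 and KIF20B. Of these, CENPC1 and CENPK lay under the filter after IFNg and passed it only through the other 3 treatments. The calls of CENPC1 and CENPK thus lean on the filter, which was the same for the background.

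Of these 5, CENPE is the motor that carries chromosomes to the spindle equator. It stood at 69.2 after IFNg against 91.9 after UV, 91.9 following heat shock and 81.7 after HGF. KIF14, a kinesin of cytokinesis, stood at 74.6 after IFNg against 95.02, 95.1 and 86.5 after UV, heat shock and HGF. KIF20B, also of late mitosis, stood at 74.6 after IFNg against 94.7, 95.4 and 84.7 in the same order. In all 3 genes HGF lay between IFNg and the stress treatments. CENPC1, the CENP-C gene that ties the CCAN to CENP-A nucleosomes, stood at 51.7 after IFNg against 73.3 after UV, 79.6 following heat shock and 71.8 after HGF. CENPK, a CCAN subunit, stood at 52.9 after IFNg against 68.8 after UV, 76.3 following heat shock and 63.4 after HGF.

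The 3 genes called in other ways each stood alone. CENPP, another CCAN subunit, stood at 76.9 after heat shock against 65.7 after UV, 66.4 after HGF and 63.4 after IFNg. KIF18B, which trims astral microtubules, stood at 67.2 after heat shock against 77.6 after UV, 93.7 after HGF and 93.1 after IFNg. KIF21B, a processive motor known mainly from neurons and immune cells, stood at 83.0 after IFNg against 52.7 after UV, 52.0 following heat shock and 70.0 after HGF. Its lowest values lay only a little above the bottom rank after UV.

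The second comparison set the stress treatments, UV and heat shock, against the ligand treatments, HGF and IFNg. Both stress ranks lay at least 10 points above both ligand ranks for 6 of 42 genes, or 14.3%, against a background of 5.71%, and for 1 other gene after correction for GC content. They lay at least 10 points below for 2, or 4.76%, against a background of 7.98%. KIF3A among the 6 and KIF21B among the 2 passed the filter only through the pair in which they ranked higher. Their calls thus lean on the filter, which was the same for the background. Without regard to size, the stress ranks lay wholly above the ligand ranks for 24 genes (57.1%) and wholly below for 9 (21.4%), where 36.6% and 30.9% of all symbols past the filter did. The median difference, the mean of both stress percentiles minus the mean of both ligand percentiles, was 4.87 points over the 42 genes and 0.74 points over all symbols. Without the UV libraries 11 genes (26.2%) lay above, against a background of 13.0%, and 4 (9.52%) below, against 15.3%. Without those of heat shock 6 (14.3%) lay above, against 9.23%, and 4 (9.52%) below, against 11.3%. Without those of HGF 15 (35.7%) lay above, against 13.6%, and 4 (9.52%) below, against 13.6%. Without those of IFNg 7 (16.7%) lay above, against 9.28%, and 3 (7.14%) below, against 11.5%.

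By role, the median stress minus ligand difference was 7.60 points for the 13 mitotic kinesins past the filter, 1.02 for 13 transport and other kinesins, 11.8 for 13 centromere chromatin and CCAN genes and 2.34 for the other 3 CENP genes. The CCAN class thus held the largest median of the 4 classes, and its differences ran between -10.66 for CENPT and 20.45 for CENPI. Stress ranks lay wholly above ligand ranks for 8 of its 13 genes and wholly below for 2, CENPT and CENPM. Among mitotic kinesins they lay wholly above for 9 and wholly below for 3, KIF18B, KIF22 and KIF24. Among transport and other kinesins they lay wholly above for 5 and wholly below for 4, KIF1C, KIF7, KIF21B and KIF26A. Of all symbols past the filter, 36.6% lay wholly above and 30.9% wholly below. Each of these class counts rests on 13 genes, and the transport and other kinesins were close to those shares. Differences within a class were wider than those between classes. The class counts depend on where a gene was placed. KIF2A, which lay wholly above, was put with the transport and other kinesins, and KIF24 with the mitotic kinesins.

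The 6 genes higher after stress were CENPE and KIF20B, already given, and CENPH, CENPI, CENPQ and KIF3A. CENPI, a CCAN subunit, stood at 79.4 after UV and 84.2 after heat shock against 65.1 after HGF and 57.6 after IFNg. CENPQ, another, stood at 81.9 and 88.8 after UV and heat shock against 65.6 and 67.0 after HGF and IFNg. CENPH, which shares a CCAN subcomplex with CENPI, stood at 87.0 and 91.5 after the stress treatments against 72.6 and 70.0 after the ligands. Their differences were 20.4 points for CENPI, 19.0 for CENPQ and 17.9 for CENPH. KIF3A, a motor subunit of kinesin-2 that builds cilia, stood at 70.3 after UV and 75.3 after heat shock against 59.6 after HGF and 49.8 after IFNg. Its partner subunit KIF3B moved less, with 90.2 and 87.8 after UV and heat shock against 85.7 and 82.7 after HGF and IFNg, a difference of 4.77 points.

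The 2 genes lower after stress were KIF18B, with a difference of -21.0 points, and KIF21B, with -24.1. The relatives of both went the other way. KIF18A, which controls chromosome oscillation at the plate, stood at 79.7 after UV and 82.5 after heat shock against 74.6 after HGF and 72.4 after IFNg. KIF21A stood at 89.99 and 93.5 after UV and heat shock against 81.2 and 79.7 after HGF and IFNg. Each pair of relatives also differed in base composition, with GC making up 58.4% of the KIF18B transcript and 37.0% of the KIF18A transcript, and 59.7% of KIF21B and 42.1% of KIF21A.

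Base composition moved with the difference across the whole set. The GC content of a gene was that of its longest GENCODE transcript, found for 42 of 42 genes and for 88.8% of all symbols past the filter. Across genes, Spearman's rho between GC content and the stress minus ligand difference was -0.86 over the 42 and -0.72 over all, as a description only, since all points share the same 8 libraries. All genes were split into 3 equal parts by GC content, and the lowest, up to 43.7%, held 19 of the 42, and all 6 genes higher after stress were among them. The median difference there was 13.3 points for the 19 genes and 7.74 for all genes of that part, of which 14.4% passed the 10-point mark upward. The highest, above 53.6%, held 12 genes, both genes lower after stress among them, with a median of -9.23 points for the 12 and -8.15 for all, of which 21.1% passed the mark downward. None of the 11 genes in the middle passed it.

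When the median of each of 40 GC bins was taken off each treatment, 1 of the 42 genes lay past the mark upward and 0 downward, and none of the 8 genes called as deposited was among them, where 2.87% and 1.95% of the 11023 symbols with a GC value did. The gene was CENPB, whose GC content was 66.2%. Its difference was -1.53 points as deposited and 13.0 points after the correction. Its ranks lay between 91.8 and 95.2 in every treatment, so the 13.0 points came from the medians taken off. KIF12, a gene under the filter with a difference of 0, got 14.5 points in the same way. The correction takes no account of how near a gene lies to the top or bottom rank. Of the single-treatment calls, CENPP above after heat shock, KIF21B above after IFNg and CENPC1 below after IFNg stood, while KIF18B below after heat shock and the other 4 genes below after IFNg did not. The median over the 42 genes was then 2.67 points, against 0.37 over all symbols. CENPI kept 13.1 points, CENPH 11.2 and CENPN 9.65, while KIF20B kept 3.04 and CENPE 4.10. In the other direction KIF21B kept -13.0 points and KIF18B -12.1. None of these genes passed the mark, which sets both stress ranks against both ligand ranks. By class the corrected medians were 1.74 for mitotic kinesins, 2.09 for transport and other kinesins, 6.001 for centromere chromatin and CCAN genes and 4.48 for the other CENP genes. Whether library composition or the treatments set the GC trend cannot be told apart with 1 library of a kind for each treatment.

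**Figure D2:**
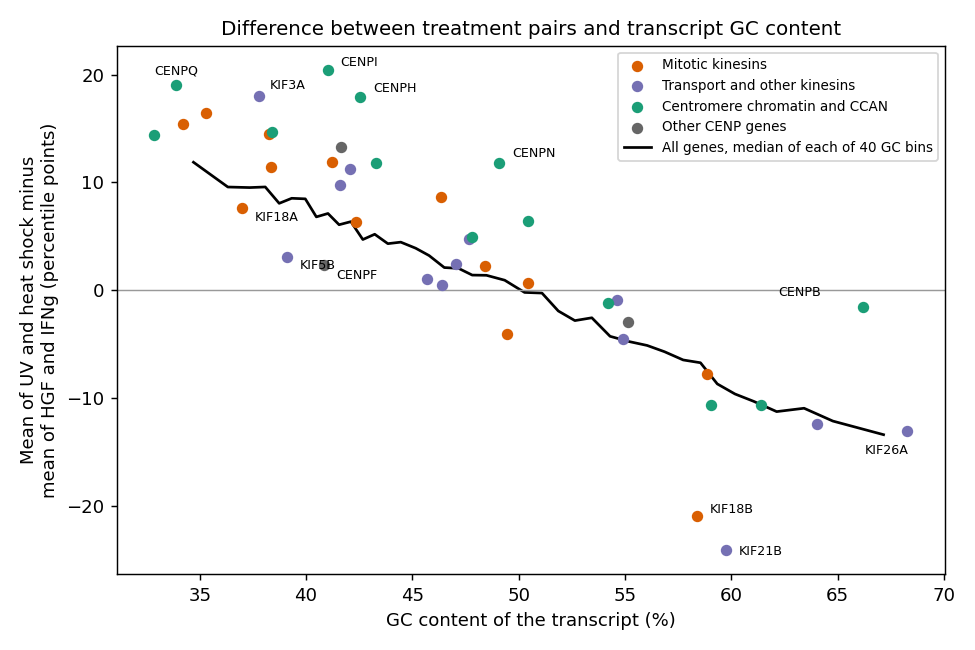
Stress minus ligand difference in percentile points (vertical axis) against GC content of the longest GENCODE transcript (horizontal axis, percent) for the 42 genes, coloured by class, with the median of all genes in each of 40 GC bins as a line. The genes follow the falling line. CENPI, with a difference of 20.4 points, lies above it on the left, and CENPB lies above it on the right. KIF18B and KIF21B, with differences of -21.0 and -24.1, lie below it.

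Genes that act beside the members were counted by the same rules. Of 28 other kinetochore genes past the filter, 7 were higher after stress and 1 lower, where 5.71% and 7.98% of all symbols were, and after correction for GC content 2 were higher and 0 lower. Their median difference was 9.50 points as deposited and 3.20 points corrected. NDC80, a subunit of the complex that grips microtubules, stood at 92.1 and 91.5 after UV and heat shock against 78.8 and 77.8 after HGF and IFNg. Its partner SPC25 stood at 89.98 and 90.2 after the stress treatments against 78.3 and 66.8 after the ligands. The complex did not move as a whole. SPC24 went the other way, short of the mark, at 82.9 and 68.3 after stress against 91.9 and 88.6 after the ligands. NUF2 had overlapping ranks and a difference of 5.77 points. MAD2L1, the checkpoint protein MAD2, stood at 87.6 and 91.1 after the stress treatments against 72.8 and 63.2 after the ligands. ITGB3BP, which is the CCAN subunit CENP-R, stood at 80.8 and 87.0 after the stress treatments against 63.1 and 59.8 after the ligands. The other 3 genes higher after stress were SGOL2, ZW10 and ZWILCH. The 1 lower was MAD1L1, at 76.7 and 71.8 after the stress treatments against 89.0 and 91.7 after the ligands. The median GC content of this list was 41.5% and that of MAD1L1 was 62.6%. Of 26 other spindle and cytokinesis genes, 0 were higher and 0 lower, and of 26 other motor genes past the filter, such as dyneins and kinesin light chains, 0 were higher and 3 lower, KIFC2, KLC2 and KLC4, or 1 higher and 1 lower after the correction. KLC4, a kinesin light chain, stood at 49.0 after UV and 32.7 after heat shock against 76.1 after HGF and 72.3 after IFNg. KLC4 and KIFC2 passed the filter only through the ligand treatments. The lists were compared by counts alone.

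Sequence upstream of the genes was read because many genes of mitosis are known to be repressed outside G2 through a CHR element, TTTGAA, near a CCAAT box. RefSeq promoters of build GRCh38.p14, running 250 bases before to 50 bases after each gene start, were found for 46 of the 56 genes. Searched on both strands, TTTGAA was in 9 of 14 mitotic kinesin promoters (64.3%), 4 of 10 of centromere chromatin and CCAN genes and 1 of 20 of transport and other kinesins (5.00%), where 15.4% of all 27305 promoters held it. CCAAT was in 11 of the 14 mitotic kinesins (78.6%), 5 of 10 of the centromere and CCAN genes and 5 of 20 of the transport kinesins, against 35.7% of all. Both were in 57.1% of mitotic kinesin promoters against 6.08% of all promoters. A match describes letters in a window, and the motifs can share a base at their ends.

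Of the 12 genes called above, 10 had a promoter, 4 held TTTGAA and 6 held CCAAT, and 4 held both. Of the 42 genes past the filter, 36 had a promoter, and 38.9% of these held TTTGAA, 52.8% CCAAT and 33.3% both. The called genes thus lay near the share of their own set. For the 4 called genes with both motifs, the 150 bases before the start are given on the coding strand. Every CCAAT or TTTGAA of either strand is in capitals. They are shown because these genes carry both motifs but did not rank alike across the treatments. CENPC is the present symbol of CENPC1.
CENPC, chr4:67545504-67545653, minus strand: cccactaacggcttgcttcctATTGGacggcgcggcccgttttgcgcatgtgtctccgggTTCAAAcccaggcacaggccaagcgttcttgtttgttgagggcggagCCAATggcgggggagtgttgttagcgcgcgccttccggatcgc
KIF14, chr1:200620752-200620901, minus strand: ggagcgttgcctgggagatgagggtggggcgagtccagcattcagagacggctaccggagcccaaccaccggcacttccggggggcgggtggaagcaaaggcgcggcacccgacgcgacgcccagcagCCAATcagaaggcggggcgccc
KIF18B, chr17:44947774-44947923, minus strand: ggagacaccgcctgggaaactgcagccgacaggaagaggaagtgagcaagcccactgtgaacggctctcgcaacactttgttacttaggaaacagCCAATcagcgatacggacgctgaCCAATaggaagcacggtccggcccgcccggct
KIF20B, chr10:89701440-89701589, plus strand: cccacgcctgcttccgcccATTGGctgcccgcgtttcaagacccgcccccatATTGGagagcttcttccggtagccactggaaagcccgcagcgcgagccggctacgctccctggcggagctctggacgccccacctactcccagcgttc
In CENPC the CHR letters begin 90 bases before the start. In KIF14, KIF18B and KIF20B they lie after the start, from base 2, base 3 and base 25, and are not in the stretch shown. A further copy in KIF20B begins at base 31 after the start. The same letters thus stood at 3 genes that ranked lowest after IFNg and at KIF18B, which ranked lowest after heat shock.

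The m6A peaks were those of the deposited table, which lists for each treatment the position of a peak in the transcript, its exon, its transcript segment and a score of at least 2. How the score was computed is not given in the sources used here. A peak was listed for 27 of the 42 genes after UV (64.3%, against 55.0% of all symbols past the filter), for 18 after heat shock (42.9%, against 44.3%), for 22 after HGF (52.4%, against 42.7%) and for 11 after IFNg (26.2%, against 28.2%). The exact 95% binomial intervals of these shares, 48.0 to 78.4% after UV, 27.7 to 59.0% after heat shock, 36.4 to 68.0% after HGF and 13.9 to 42.04% after IFNg, all held the background share. They cover counting error only. Genes of the set were longer, with a median transcript of 4696.5 nt against 3594 nt, and the part of length in the peak counts was not tested.

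**Figure D3:**
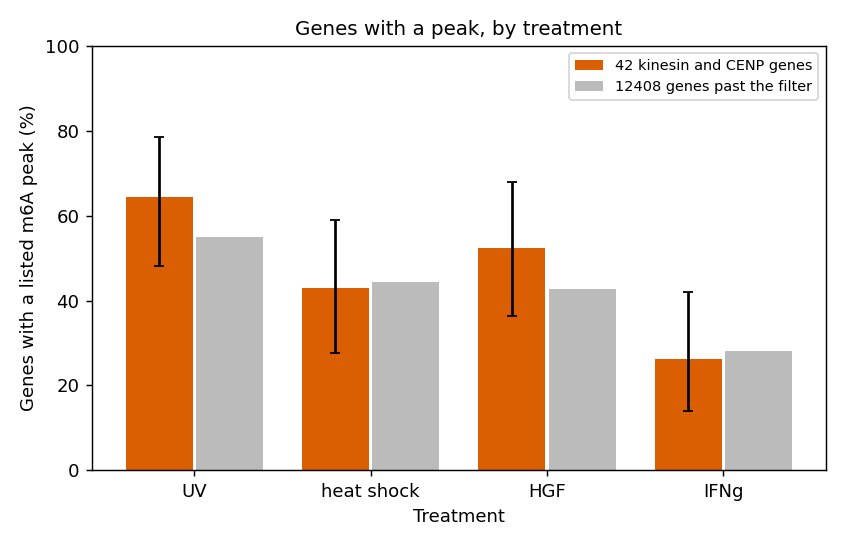
Share of genes with at least 1 listed m6A peak (vertical axis, percent) after each treatment, for the 42 kinesin and CENP genes (orange) and the 12408 symbols past the filter (grey); error bars are exact 95% binomial intervals. The share in the 42 genes was 64.3% after UV and 26.2% after IFNg, close to the grey bars at 55.0% and 28.2%.

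The share with a peak was also taken within bands of expression rank. In the band from the 90th percentile up, 14 of 16 genes had a UV peak (87.5%, interval 61.7 to 98.4%) against 68.0% of all symbols in that band, which lies within the interval. After heat shock it was 9 of 16 (56.2%) against 56.5%, after HGF 6 of 11 (54.5%) against 49.2%, and after IFNg 4 of 10 against 38.3%. In the band between the 75th and 90th percentile it was 9 of 15 after UV (60%) against 64.2%, 6 of 17 after heat shock (35.3%) against 52.5%, 8 of 15 after HGF (53.3%) against 52.3% and 4 of 13 after IFNg (30.8%) against 39.6%. In the band between the 60th and 75th percentile it was 4 of 9 after UV (44.4%) against 54.2%, 3 of 8 after heat shock (37.5%) against 40.8%, 8 of 15 after HGF (53.3%) against 40.8% and 3 of 15 after IFNg (20%) against 21.9%. Each of these shares rests on 17 genes or fewer, and after UV the 42 genes stood above all symbols in the top band alone.

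A peak in all 4 treatments was listed for 9 genes (21.4%, against 22.6% of all symbols): CENPB, CENPF, CENPL, CENPO, KIF3B, KIF5B, KIF13A, KIF14 and KIF26A. No peak in any treatment was listed for 11 genes (26.2%, against 39.2%): CENPK, CENPM, CENPP, CENPQ, CENPT, KIF2A, KIF3A, KIF13B, KIF15, KIF21B and KIF23. KIF23 had none although its percentile was at least 90.05 in every treatment. Relatives could differ fully. KIF3B had 4 peaks after UV, 6 following heat shock, 3 after HGF and 2 after IFNg, while its partner KIF3A had 0 in each. KIF3A also ranked lower, with percentiles between 49.8 and 75.3 against 82.7 to 90.2 for KIF3B. The part of rank in this contrast was not tested. KIF13A had 1, 2, 2 and 3 peaks after UV, heat shock, HGF and IFNg, while KIF13B, with percentiles between 58.7 and 62.8, had 0 in each.

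The 31 genes with a peak carried 153 peaks, of which 48 were listed after UV, 40 following heat shock, 46 after HGF and 19 after IFNg. Peaks within 100 nt of each other were joined across treatments into 77 sites, compared with 17667 sites in 7891 of all symbols. Coding sequence held 45 of the 77 sites (58.4%, interval 46.6 to 69.6%) against 42.4% of the 17159 sites of all symbols that had a segment in the table. The segment around the stop codon held 17 (22.1%) against 25.8%, the 3′ UTR 8 (10.4%, interval 4.59 to 19.4%) against 20.9%, the transcription start segment 5 (6.49%) against 8.28% and the 5′ UTR 2 (2.60%) against 2.64%. Pooled over treatments, the set thus had more of its sites in coding sequence and fewer in 3′ UTRs than the table as a whole. Neither pooled interval reached the share of all sites. Peaks taken by treatment leaned the same way, but only the coding share after HGF had an interval clear of the background. It was 67.4% (interval 52.0 to 80.5%) against 44.5% of all HGF peaks with a segment. The coding intervals after UV, heat shock and IFNg held the background, as did the 3′ UTR intervals in every treatment. Sites or peaks of 1 gene are not independent, so these intervals are too narrow. Of the 45 coding sites, 38 (84.4%) lay in exons of 400 nt or more, against 82.6% of all coding sites, with a median exon of 1469 nt against 1251.5 nt. Long internal exons are a known place of m6A.

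CENPF held the most sites, 8, from 17 peaks. Of these, 6 were in its coding sequence, all in exons 12 and 13, which are 3404 and 2844 nt long. The site at transcript positions 6248 to 6289 had scores of 4.97 after UV, 5.47 following heat shock and 4.66 after HGF and none listed after IFNg. The site at 5239 to 5287 had 4.18 after UV, 3.59 after HGF and 2.67 after IFNg and none listed after heat shock. The start segment at 86 to 94 had 3.54 after UV and 5.21 after heat shock and none after either ligand. No CENPF site was listed in all 4 treatments, although each treatment had at least 1 peak in the gene.

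KIF3B had 6 sites, and 2 of them were listed everywhere, both in its exon 2 of 1469 nt. At 352 to 379 the scores were 4.59 after UV, 4.95 following heat shock, 5.47 after HGF and 3.01 after IFNg. At 1046 to 1132 they were 5.05, 5.35, 3.43 and 3.91 in the same order. Its last exon, 3786 nt long, held 3 further sites in the 3′ UTR, with 4.71 after UV and 3.55 after heat shock at 5700 to 5735 and none after a ligand there. KIF26A, an atypical kinesin without ATPase activity, had 5 sites, 4 of them in coding exon 12 of 2917 nt. Its site at 5817 to 5838, around the stop codon, was listed in all 4 treatments with scores of 5.49, 3.12, 4.66 and 2.84 after UV, heat shock, HGF and IFNg. CENPJ, KIF1B, KIF13A and KIF24 had 4 sites each, and KIF1B had all 4 in its 3′ UTR exon of 5059 nt.

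**Figure D4:**
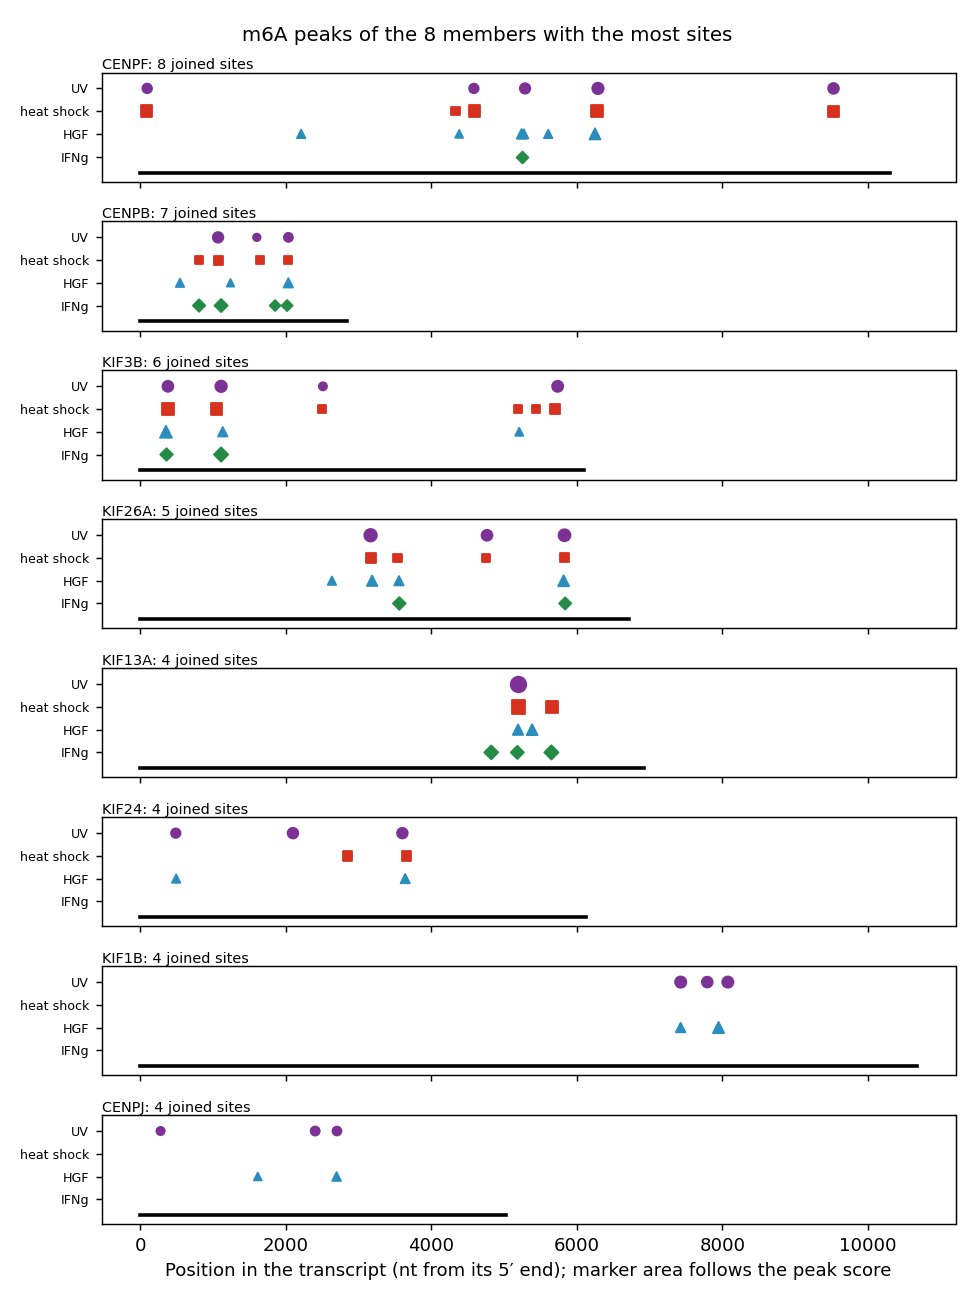
Positions of m6A peaks along the transcript (horizontal axis, nt from its 5′ end) in the 8 genes with the most sites, 1 row for each treatment, with marker area following the peak score; the black line spans the length of the longest GENCODE transcript, which may differ from the gene model of the table. In CENPF the peaks crowd between positions 4331 and 6289, in KIF13A between 4822 and 5662, and in KIF1B beyond 7425.

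Altogether 9 of the 77 sites (11.7%) were listed in all 4 treatments, against 16.5% of all sites, in CENPB, CENPL, CENPO, KIF3B, KIF13A, KIF14 and KIF26A. At KIF13A positions 5181 to 5196 the scores were 9.27 after UV, 6.94 following heat shock, 4.23 after HGF and 3.31 after IFNg, and 9.27 was the highest score in the set. At KIF14 positions 1132 to 1170, in exon 2, they were 6.57, 6.02, 4.28 and 3.95. In CENPO, a CCAN subunit, the 3′ UTR site at 1425 to 1456 had 7.22, 4.36, 5.09 and 3.80. CENPL, also of the CCAN, had 2 such sites, with 3.48, 4.41, 4.11 and 3.33 at 1643 to 1672 and 3.92, 3.40, 3.48 and 2.05 at 2092 to 2106. Scores were lowest after IFNg at 8 of the 9 sites, and the median score of all peaks in the table was also lowest there, at 3.00, against 4.07 after UV. The same count was not made over all sites listed in all 4 treatments, so the 8 of 9 has no background.

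Scores were compared at shared sites by their rank from 0 to 100 within a treatment, over all 2925 sites of the table listed in all 4 treatments. A treatment was counted where its rank lay at least 25 points beyond the nearest of the other 3, in either direction. Of the 9 sites here, 1 was counted for UV, where 7.04% of all shared sites were, and 0 for heat shock (background 6.29%), 0 for HGF (background 6.87%) and 0 for IFNg (background 15.6%). The single site was CENPL 1643 to 1672, with a score rank of 12.004 after UV against 50.9 following heat shock, 48.0 after HGF and 50.4 after IFNg. At KIF13A 5181 to 5196 the ranks were 99.9 after UV and 98.4 after heat shock against 51.3 after HGF and 49.7 after IFNg, so that neither stress treatment stood apart from the other.

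Sites listed after HGF and no other treatment were 15 of the 77 (19.5%, interval 11.3 to 30.1%), against 9.01% of all sites. After UV alone it was 10 (13.0%, interval 6.41 to 22.6%) against 21%. After heat shock alone it was 3 (3.90%) against 5.07% and after IFNg alone 3 (3.90%) against 5.24%. Some HGF sites lay only a little beyond the joining distance, as at KIF20A 2732 beside 2621 to 2625 and KIF1B 7946 beside 8074. These counts were not repeated at other joining distances. Sites of 1 gene are not independent, so the intervals are too narrow. The HGF sites lay in 11 genes, CENPB, CENPE, CENPF, CENPJ, KIF1B, KIF11, KIF13A, KIF16B, KIF20A, KIF20B and KIF26A, and their scores ran between 2.15 and 4.81 with a median of 2.68. KIF20B, which had 3 peaks after HGF, 1 after IFNg and none after UV or heat shock, had an HGF score of 4.72 at position 2640 and of 4.66 at 3422 to 3441. Its ligand percentiles were the lower ones, 84.7 after HGF and 74.6 after IFNg against 94.7 after UV and 95.4 after heat shock. CENPE, the other gene higher after stress with more than 1 site, had 2 HGF sites in short exons of 119 and 120 nt. The remaining site, at 8186 to 8187 around the stop codon, had scores of 5.42 after UV, 5.71 following heat shock and 5.01 after HGF. The median score of all HGF peaks in the set was 3.34, above the 2.68 of the sites listed after HGF alone.

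Bases around a site could be read where a GENCODE 29 transcript had the same chromosome, strand and span as the gene model and the same exon number, exon length and position for every peak. That held for 755 of 7952 gene models with a peak, and for CENPB, CENPE, CENPH and KIF16B among the 31 genes here. In windows of 101 nt centred on the peak with the highest score, GGAC, the commonest core of the m6A motif, was present at 1052 of 1715 sites (61.3%), and in 703 of 2413 windows displaced by 400 nt in the same transcripts (29.1%). It was present at 8 of the 12 sites in these 4 genes. CENPB, with a GC content of 66.2%, gave 7 of the 12, and displaced windows were not counted for these genes alone. Coding windows of 5 sites are printed from the transcript strand with GGAC in capitals. They are shown for CENPB, which had 7 sites in a single exon of 2840 nt, and for CENPE.
CENPB, chromosome 20, transcript positions 495 to 595, listed after HGF: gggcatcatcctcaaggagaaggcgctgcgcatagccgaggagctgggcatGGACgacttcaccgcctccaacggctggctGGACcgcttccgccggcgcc
CENPB, chromosome 20, transcript positions 757 to 857, listed after heat shock and IFNg: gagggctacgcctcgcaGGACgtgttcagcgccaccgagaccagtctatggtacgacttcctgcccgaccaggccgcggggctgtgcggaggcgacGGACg
CENPB, chromosome 20, transcript positions 1018 to 1118, listed after UV, heat shock and IFNg: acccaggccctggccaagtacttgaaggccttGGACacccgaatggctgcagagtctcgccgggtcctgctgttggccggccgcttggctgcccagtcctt
CENPB, chromosome 20, transcript positions 1189 to 1289, listed after HGF: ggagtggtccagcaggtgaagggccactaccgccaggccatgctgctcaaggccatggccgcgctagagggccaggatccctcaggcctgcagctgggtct
CENPE, chromosome 4, transcript positions 287 to 387, listed after HGF: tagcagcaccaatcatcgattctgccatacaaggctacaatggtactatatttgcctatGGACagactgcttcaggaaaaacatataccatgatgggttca
Of the CENPB sites with a window in coding sequence, those at 545, 806 to 807, 1068 to 1110 and 1600 to 1640 held GGAC, and those at 1239, listed after HGF, and 1852, listed after IFNg, did not. The A of the nearest GGAC lay 3 nt after the centre at 545, 31 nt before it at 807 and 16 nt before it at 1068. Scores at 1068 to 1110 were 4.27 after UV, 3.08 after heat shock and 3.32 after IFNg. In CENPE the window covered codons 67 to 99 and held the codons of the nucleotide-binding loop of the motor, codons 86 to 93, and the A of its GGAC lay 11 nt after the centre. CENPB also had a site around its stop codon, at 2017 to 2035, listed in all 4 treatments with scores of 3.13, 2.69, 3.39 and 2.33 after UV, heat shock, HGF and IFNg.

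In the coordinates of the table, counted from 1 on a build that is not given in the sources used here, CENPF ran over chromosome 1 from 212843155 to 212904537 on the plus strand. CENPB ran over chromosome 20 from 3712498 to 3715337 on the minus strand. KIF14 ran over chromosome 1 from 198787930 to 198856485, CENPE over chromosome 4 from 104246412 to 104339015 and KIF13A over chromosome 6 from 17871903 to 18095778, all on the minus strand. KIF3B ran over chromosome 20 from 30329128 to 30386472 on the plus strand.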

How the data were processed

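Libraries of fragmented polyA-selected RNA, precipitated with an anti-m6A antibody or kept as input, were sequenced on a Genome Analyzer IIx, per the labels' protocols. Not given in the sources used here are the aligner, genome build, peak caller and read filters. The authors deposited 1 table of 25918 gene models with an expression quantile for each treatment, a fraction from 0 to 1 that is multiplied here by 100. The deposited peak score has an unstated formula and a minimum of 2, and read depth is unknown.

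The row with the highest mean percentile was kept for each symbol. Before comparison the bottom ranks were raised to the highest of the 4, 45.5. Symbols at the 60th percentile in any treatment were compared, with marks of 10 points for ranks and 25 points for score ranks, and peaks within 100 nt were joined. The calling functions were tested on simulated data. No test between treatments was made. Genes were named by rule: those past a mark, those with the most sites or a site in all 4 treatments, and the 10 of highest mean percentile; relatives of these were added after their values were seen. Members, classes and lists were chosen with earlier results of these data known. GC content and windows came from GENCODE 29 and promoters from RefSeq, read with Python 3.11.15, pandas 2.3.3, NumPy 2.4.6 and SciPy 1.17.1.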

Additional observations from a re-analysis of the deposited data

How the results depend on the processing

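No paired analysis was possible because each treatment has 1 library of each kind, and no library could be left out within a treatment. Keeping the floors, averaging the rows of a symbol and taking a peak in any row could not change a count, since each gene had 1 row and none of the 42 ranked below 49.8, above every floor. Of the 80 other recomputed counts, 49 stayed within 1.5 times the reported count and 31 did not; the shares of all symbols moved too and follow each count. At 5 points UV called 1 gene above (4.67%) and 1 below (5.35%), heat shock 6 (9.41%) and 2 (11%), IFNg 2 (8.12%) and 12 (11%), and stress against ligand 16 (16.9%) and 6 (16.3%). At 15 points heat shock called 0 (1.15%) and 0 (1.36%) and IFNg 0 (1.76%) and 1 (0.766%). Against the median of the other treatments UV called 6 (10.7%) and 4 (13.0%), heat shock 11 (14.9%) and 4 (16.9%), HGF 3 (12.9%) and 7 (10.9%) and IFNg 4 (15.3%) and 15 (15.2%). Of the 42 genes, 4 are 9.52%, 6 are 14.3%, 12 are 28.6% and 15 are 35.7%. With GC correction, heat shock below was 0 (1.59%), IFNg below 1 (1.80%), and stress against ligand 1 above (2.87%) and 0 below (1.95%). In alternatives chosen after seeing the data, stress against ligand was 11 above (13.0%) and 4 below (15.3%) without the UV libraries, 4 below (11.3%) without those of heat shock, and 15 above (13.6%) and 4 below (13.6%) without those of HGF. With peak scores of 3 or more, 7 genes had a peak after IFNg (16.9%), and at 15 points of score rank 5 of the 9 shared sites were counted (61.4%). The filter at the 75th percentile or none and other joining distances left the counts they bear on within 1.5 times. Counts of sites listed after a single treatment were not recomputed. The cause of these changes was not tested.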
